A study of Homo sapiens with 12 samples.

Results

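BCR, ABL1 and 8 signaling genes whose proteins act next to the BCR-ABL1 kinase were followed in K562 cells in which the deubiquitinase USP7 was inhibited. The 10 genes were taken by name: the fusion partners BCR and ABL1, the adaptors CRKL, GRB2, GAB2 and SHC1, the exchange factor SOS1, the ubiquitin ligase CBL and the phosphatases INPP5D and PTPN11. They are 10 of the 60609 genes listed in the count files, and all 10 were among the 13895 genes that passed the filter on low counts. RNA-seq had been performed on 3 cultures of K562 treated with DMSO, the solvent control, and 3 treated with 10 μM FT671, a small-molecule inhibitor of USP7, each for 48 h. All 6 libraries came from this 1 established cell line, which was derived from the blast crisis of a chronic myeloid leukemia, and the study describes the replicates as independent experiments. ChIP samples treated for 24 h belong to the same series and were not analysed here. Expression is given as CPM, the read counts relative to library sizes scaled by edgeR's TMM method, and a log2 fold change is FT671 minus DMSO, with its standard error (SE).

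The BCR-ABL1 fusion arises from a translocation between chromosomes 9 and 22 and encodes a constitutively active tyrosine kinase, the defining oncoprotein of chronic myeloid leukemia. GRB2 binds a phosphorylated tyrosine in the BCR part of the fusion protein and brings GAB2 and SOS1 to it, which couples the kinase to PI3K and RAS signaling. CRKL is among its most prominent substrates, while CBL, INPP5D and PTPN11 are phosphorylated in the same complexes and tune the signal.

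The fusion transcript is read from 2 genes, which sets what a count on BCR or ABL1 can mean. K562 carries the junction that joins BCR exon 14 to ABL1 exon 2, and the reference exon ends that meet there are given here from hg38 (plus strand, chr22:23290384-23290413 and chr9:130854064-130854093), with the 6 bases next to the junction in capitals.
BCR exon 14, last 30 bases: actcagccactggatttaagcagaGTTCAA
ABL1 exon 2, first 30 bases: AAGCCCttcagcggccagtagcatctgact
In the canonical GENCODE transcripts, 3234 of the 6783 exonic bases of BCR lie in exons 1 to 14, and 5306 of the 5578 exonic bases of ABL1 lie in exons 2 to 11. Reads from the fusion therefore fall on the first part of BCR and on nearly the whole of ABL1, where they add to those from unfused BCR and ABL1. The deposited counts are 1 number per gene, so that fused and unfused transcripts cannot be told apart.

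The fusion is transcribed from the promoter of BCR, whereas unfused ABL1 uses its own promoters. The 250 bases before 1 RefSeq start of each gene (GRCh38.p14, plus strand, chr22:23180259-23180508 and chr9:130835004-130835253) are given with each CG dinucleotide in capitals, since PRC1.1, the Polycomb complex that holds USP7, binds unmethylated CpG islands through KDM2B.
BCR promoter: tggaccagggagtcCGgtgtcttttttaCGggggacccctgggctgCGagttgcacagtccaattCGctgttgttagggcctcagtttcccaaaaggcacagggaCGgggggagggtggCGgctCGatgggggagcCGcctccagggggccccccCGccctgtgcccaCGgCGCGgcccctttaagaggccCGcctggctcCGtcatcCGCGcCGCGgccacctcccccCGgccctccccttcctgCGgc
ABL1 promoter: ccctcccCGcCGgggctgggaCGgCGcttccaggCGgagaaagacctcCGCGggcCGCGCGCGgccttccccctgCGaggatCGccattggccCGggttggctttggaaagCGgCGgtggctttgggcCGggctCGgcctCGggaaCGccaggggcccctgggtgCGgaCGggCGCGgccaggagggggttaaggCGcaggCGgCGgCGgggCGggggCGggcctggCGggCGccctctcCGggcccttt
These stretches held 20 CG dinucleotides in BCR and 33 in ABL1. Over windows of 300 bases around the start, which add 50 bases after it, the numbers were 27 and 42. Of the 14158 promoters matched to 9863 of the tested genes, 53.6% and 90.4% had fewer.

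Total counts were between 4555220 and 14250500 per library, at which 3 counts correspond to 0.211 to 0.659 CPM. All 10 members lay far above this floor, with the lowest count of any member 164 in any library. Of 10 markers of K562, among them GATA1, KLF1 and the fetal and embryonic globins, 9 passed the filter and none was at 0, with a summed expression of 1280 to 1317 CPM in DMSO and 1154 to 1196 CPM after FT671. The 8 markers of other blood cells summed to 19.6 to 23.8 CPM in DMSO and 27 to 33.5 CPM after FT671, with MS4A1 and ELANE at 0 in all 6 libraries, and their part in the results was not tested. The RNA of the drug target itself, USP7, was lower after FT671, at 33.1 ± 3.38 against 119 ± 12.3 CPM (SD, n = 3 each).

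Of the 10 members, 6 were downregulated after FT671 and 0 were upregulated at a Benjamini-Hochberg adjusted p of 0.05, by the quasi-likelihood test of edgeR. Of all genes tested, 26.5% were downregulated and 23.6% upregulated at this threshold, 50.1% in all. In bulk RNA, fewer cells that express a gene and less RNA per cell cannot be told apart. The 6 were ABL1, BCR, GAB2, GRB2, CRKL and INPP5D, in order of the size of their fall. SHC1, SOS1, CBL and PTPN11 did not pass it, and at an unadjusted p of 0.05 SOS1 was the only one of these to pass. For 7 members every FT671 library lay below every DMSO library, as it did for 30.3% of all genes tested, and no member showed the opposite. The median log2 fold change of the 10 members was −0.35, against −0.01 over all genes tested. At the stricter threshold of 1e-05, which the study's methods used with DESeq2, ABL1 and BCR were downregulated by edgeR and no member was upregulated. Of all genes tested, 4.13% were downregulated and 1.79% upregulated at this threshold, 5.92% in all. By DESeq2's Wald test 4 members passed it, and the share of all genes past it by that test was not taken. The number of 2 by edgeR changed with the libraries used, and BCR passed narrowly (adjusted p = 7.77e-06 from edgeR). That number was 1, ABL1, when DMSO replicate 1 or 2 or any FT671 library was left out, and 4, with GAB2 and GRB2 added, without DMSO replicate 3. The log2 fold change of BCR stayed between −0.79 and −0.66 in these fits.

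**Figure D1:**
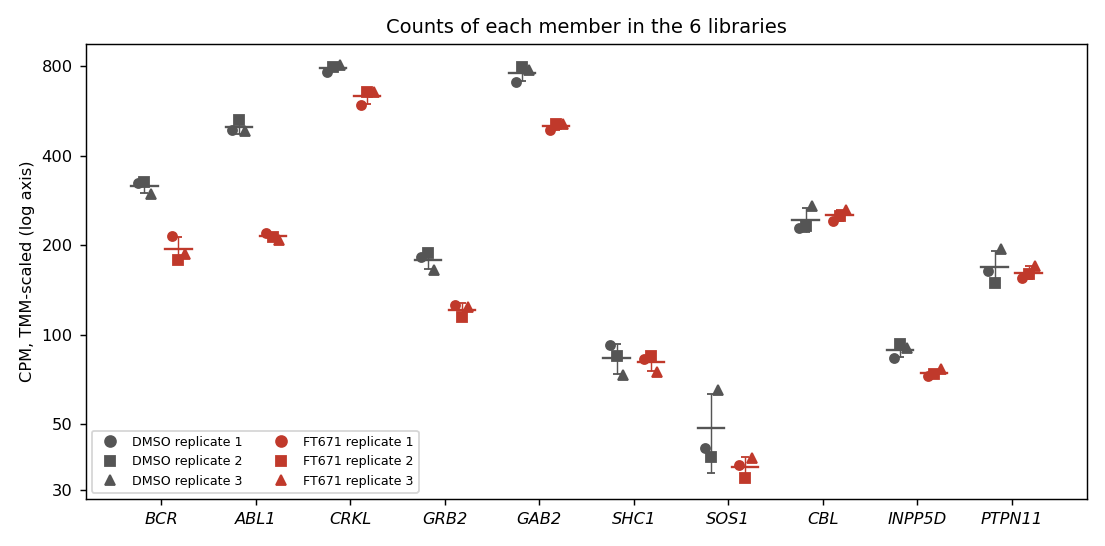
Expression of the 10 members in each of the 6 libraries, in TMM-scaled CPM on a log axis, with grey symbols for DMSO and red symbols for FT671, the symbol shape giving the replicate number, and horizontal lines with bars for the mean ± SD of 3 libraries. The red symbols of ABL1, at 209 to 220 CPM, sit far below the grey ones at 483 to 526 CPM, whereas red and grey overlap for SHC1, CBL and PTPN11.

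ABL1 (ENSG00000097007, chromosome 9 from 130713043 to 130887675 in hg38), which encodes the kinase part of the fusion, changed most among the members. Its expression was 488, 526 and 483 CPM in DMSO replicates 1, 2 and 3 and 220, 214 and 209 CPM in FT671 replicates 1, 2 and 3. The 3 treated libraries lay within 11 CPM of each other and far below every control library. The log2 fold change was −1.22 (SE 0.069, adjusted p = 2.64e-08 from edgeR), a 2.33-fold lower expression. Only 535 of the 13895 genes tested had a lower log2 fold change.

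BCR (ENSG00000186716, chromosome 22 from 23179704 to 23318037), which encodes the oligomerization domain and the GRB2 binding site of the fusion protein, had a smaller fold change than ABL1. Its expression was 324, 325 and 298 CPM in the DMSO libraries and 215, 179 and 187 CPM in the FT671 libraries, so that the groups were apart. The log2 fold change was −0.71 (SE 0.08, adjusted p = 7.77e-06 from edgeR), a 1.64-fold lower expression. The call at 0.05 held with every library left out in turn, with log2 fold changes between −0.79 and −0.66. Of the BCR pseudogenes in the annotation, BCRP3 held the most counts, 21 over all libraries together, and reads that map to both BCR and a pseudogene could not be followed here.

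The ratio of ABL1 to BCR was compared within each library. In DMSO there were 1.5, 1.62 and 1.62 counts on ABL1 for each count on BCR, and after FT671 there were 1.02, 1.19 and 1.12. This ratio does not depend on the scaling of the libraries, and it was lower in each FT671 library than in each DMSO library. The log2 ratio was 0.66 ± 0.061 in DMSO and 0.15 ± 0.11 after FT671 (SD, n = 3 each), a difference of −0.51, with p = 0.1 from a two-sided exact permutation test, the smallest p that 3 libraries against 3 allow. Adjusted over the 9 ratios tested in all, p was 0.113, so that neither passed 0.05, which this design cannot reach for a ratio.

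By the profile over the 6 libraries, centred on its mean, the genes nearest to ABL1 were EZR, VCP and ATF5, with root-mean-square differences of 0.036, 0.041 and 0.042 on the log2 CPM scale. Those nearest to BCR were ELK1, SOX12 and NARF, at 0.027, 0.034 and 0.034. BCR took rank 1051 among the 13894 genes ordered by nearness to ABL1, at 0.27. GRB2 took rank 180 in the order of nearness to BCR, at 0.094, and was the nearest of the other members. These profiles include the difference between the groups, so that near genes have similar log2 fold changes. The values were −1.25, −1.21 and −1.23 for EZR, VCP and ATF5, and −0.69, −0.67 and −0.74 for ELK1, SOX12 and NARF.

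The genes beside ABL1 in the reference genome moved in both directions. In the fusion the ABL1 exons follow BCR, so that genes before ABL1 in the reference are not beside that copy. Within 250 kb of ABL1 in the reference, 6 of 9 protein-coding genes passed the filter, of which 4 were higher and 2 lower after FT671. Of all genes tested, 23.6% were higher and 26.5% lower at an adjusted p of 0.05 from edgeR. EXOSC2, which encodes a subunit of the RNA exosome and ends 5.755 kb before ABL1, rose from 35.5 ± 1.78 to 57 ± 4.54 CPM (SD, n = 3 each). Its log2 fold change was 0.67 (SE 0.097, adjusted p = 6.72e-05 from edgeR). AIF1L, which encodes an actin-binding protein and lies 209 kb after ABL1, rose from 10.5 ± 1.4 to 42.9 ± 0.778 CPM, and FIBCD1, 14.8 kb after ABL1, rose from 0.583 ± 0.05 to 3.02 ± 1.6 CPM. FUBP3 and ASS1 on the other side were downregulated, with log2 fold changes of −0.42 and −0.59. NUP214, a nuclear pore gene 238 kb after ABL1, had by far the highest expression of these genes, 1346 ± 126 CPM in DMSO and 1561 ± 114 CPM after FT671. Its log2 fold change of 0.21 (adjusted p = 0.0411 from edgeR) was called, although its groups overlapped, and the call was lost with library totals alone, without the filter on low counts, and without DMSO replicate 1 or 2 or FT671 replicate 2 or 3, in the last 4 with log2 fold changes of 0.16, 0.20, 0.24 and 0.16. Near BCR, 1 of 3 protein-coding genes passed the filter. This was GNAZ, which encodes a G protein alpha subunit and rose from 0.943 ± 0.411 to 2.52 ± 0.488 CPM. In DMSO replicates 1, 2 and 3, GNAZ had only 13, 15 and 3 counts and FIBCD1 only 8, 7 and 3. Both genes passed the filter through the FT671 libraries, where they were higher, so that their rises are not independent of the filter.

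**Figure D2:**
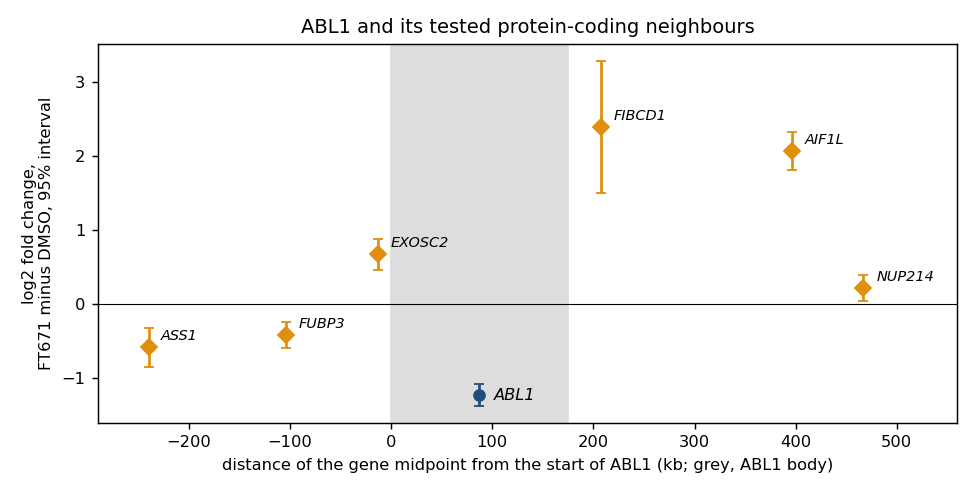
Log2 fold change, FT671 minus DMSO, of ABL1 (blue circle) and of the 6 protein-coding genes within 250 kb that passed the filter (orange diamonds). The horizontal axis is the distance in kb of each gene's midpoint from the start of ABL1 in the reference genome. Bars are 95% intervals from edgeR, and ABL1, at −1.22, lies below FUBP3 and ASS1 on its left, whereas AIF1L, at 2.07, lies above it on the right.

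Among the adaptors, GAB2, GRB2 and CRKL were downregulated and SHC1 was not. GAB2 (ENSG00000033327, chromosome 11 from 78215293 to 78418348) encodes a scaffold that recruits PI3K and PTPN11 once it is phosphorylated. It had 708, 799 and 776 CPM in the DMSO libraries and 487, 513 and 511 CPM after FT671. No FT671 library reached the lowest DMSO library, and the log2 fold change was −0.59 (SE 0.07, adjusted p = 1.14e-05 from edgeR).

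GRB2 (ENSG00000177885, chromosome 17 from 75318076 to 75405709), the adaptor that links phosphorylated tyrosines to SOS1, had 182, 189 and 165 CPM in DMSO and 126, 114 and 124 CPM after FT671. These groups were apart as well, and the log2 fold change was −0.56 (SE 0.078, adjusted p = 4.48e-05 from edgeR). CRKL (ENSG00000099942, chromosome 22 from 20917407 to 20953747), an adaptor with SH2 and SH3 domains, had 769, 796 and 807 CPM in DMSO and 593, 655 and 656 CPM after FT671. Its fall was smaller, with a log2 fold change of −0.32 (with SE 0.069, adjusted p = 0.00165 from edgeR), and the groups did not overlap.

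SHC1 (ENSG00000160691, chromosome 1 from 154962298 to 154974395) encodes an adaptor that offers GRB2 further binding sites. Its expression was 92.3, 84.5 and 73 CPM in DMSO and 82.6, 84.6 and 75 CPM after FT671, with overlapping groups. The log2 fold change of −0.06 (95% interval −0.27 to 0.14, adjusted p = 0.62 from edgeR) changed sign after a correction for GC content and without DMSO replicate 1, at 0.02 in both. SHC1 shares 335 exonic bases with PYGO2, which is read in the same direction. PYGO2 had 39.3% as many counts and a log2 fold change of −1.11. On the opposite strand, ENSG00000271380 shares 326 exonic bases with SHC1, with 12.9% as many counts and a log2 fold change of −0.47.

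SOS1 (ENSG00000115904, chromosome 2 from 38962206 to 39124345), the exchange factor that loads RAS with GTP, had the lowest expression of the members. It had 41.6, 38.8 and 65.1 CPM in DMSO and 36.4, 32.8 and 38.4 CPM after FT671. DMSO replicate 3 stood above the other 2 control libraries, which in turn lay just above the treated ones. The log2 fold change was −0.39 (SE 0.16, 95% interval −0.74 to −0.04), with an adjusted p of 0.0582 from edgeR, and it was −0.16 without DMSO replicate 3 (adjusted p = 0.157 from edgeR). Without DMSO replicate 1 or 2 it was −0.50 and −0.53 and passed 0.05. It also passed with library totals alone, without the filter on low counts and after the GC correction (adjusted p = 0.0469, 0.00153 and 0.00295 from edgeR). The intronic transcript SOS1-IT1, which shares exonic bases with SOS1, held 3.58% as many counts.

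CBL (ENSG00000110395, chromosome 11 from 119206298 to 119313926) encodes a ubiquitin ligase that is both a substrate of BCR-ABL1 and a brake on tyrosine kinases. It had 228, 233 and 270 CPM in DMSO and 242, 251 and 262 CPM after FT671, and each treated library fell within the range of the controls. The log2 fold change was 0.05 (95% interval −0.12 to 0.22, adjusted p = 0.606 from edgeR). After a correction for exon length it was 0.21 and passed 0.05 (adjusted p = 0.0122 from edgeR). MCAM, which shares 509 exonic bases with CBL on the opposite strand, had a log2 fold change of 1.2 and 24.5% as many counts, and the strand setting of the counting is not given in the sources used here.

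The phosphatases moved little. INPP5D (ENSG00000168918, chromosome 2 from 233059967 to 233207903) encodes SHIP1, which removes a phosphate from the lipid product of PI3K. It had 83.4, 93 and 89.8 CPM in DMSO and 72.6, 73.6 and 76.4 CPM after FT671, so that all treated libraries were lower. Its log2 fold change of −0.25 (with SE 0.08, adjusted p = 0.0171 from edgeR) was the weakest of the 6 calls. The call was lost without DMSO replicate 2, FT671 replicate 1 or FT671 replicate 2, at −0.21, −0.24 and −0.24. It was also lost after the exon length correction, at −0.12, after the GC correction, at −0.17, and by DESeq2's Wald test, at −0.23.

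PTPN11 (ENSG00000179295, chromosome 12 from 112418351 to 112509918) encodes SHP2, a tyrosine phosphatase that promotes RAS signaling. It had 163, 149 and 194 CPM in DMSO and 155, 160 and 170 CPM after FT671, all of the latter inside the range of the controls. The log2 fold change was −0.05 (95% interval −0.25 to 0.15, adjusted p = 0.668 from edgeR), and it was 0.05 without DMSO replicate 3 and 0.10 after the exon length correction. On the opposite strand, RPL6 shares 111 exonic bases with PTPN11, with a log2 fold change of −0.73 and 45.3% as many counts.

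Between genes, levels were compared per kilobase of merged exon. In DMSO the order was CRKL (148 ± 3.73 CPM per kb), GAB2 (112 ± 7.01), ABL1 (71.4 ± 3.37), GRB2 (37.9 ± 2.54), BCR (25.8 ± 1.26), CBL (20.8 ± 1.96), SHC1 (19.2 ± 2.24), PTPN11 (12.5 ± 1.71), INPP5D (10.2 ± 0.564) and SOS1 (2.11 ± 0.627), each with the SD of 3 libraries. CBL and SHC1 overlapped and could not be ordered, whereas all other neighbors in this order were apart in every DMSO library. After FT671, CRKL and GAB2 remained the highest, at 119 ± 6.79 and 74.3 ± 2.15 CPM per kb, and SOS1 the lowest, at 1.56 ± 0.123. ABL1 fell to 30.6 ± 0.779, close to GRB2 at 25.7 ± 1.31. BCR fell from rank 5 to rank 7, at 15.8 ± 1.54, where it overlapped SHC1 at 18.6 ± 1.17. These ranks depend on the length used. With the longest transcript in place of merged exons, BCR kept rank 5 after FT671, and GRB2 lay above ABL1, at 32.5 and 31.9 CPM per kb. The order in DMSO changed as well. CBL moved from rank 6 to rank 8, at 21.8 CPM per kb, below SHC1 at 23.9 and PTPN11 at 22.1. GRB2 and BCR lay close together in DMSO, at 47.9 and 46.6 CPM per kb.

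Each member belongs to a small family, and the paralogs (fixed by name, 15 genes) were compared with their members. Of the 15, 11 passed the filter, of which 5 (45.5%) were downregulated and 0 upregulated, against 26.5% and 23.6% of all genes tested. GRAP, SHC3 and CBLC were at 0 in every library. SOS2, the second RAS exchange factor, had 20.5, 19.9 and 32 CPM in DMSO and 6.66, 6.68 and 6.26 CPM after FT671, and was lower in all treated libraries. Its log2 fold change of −1.85 (with SE 0.2, adjusted p = 4.80e-06 from edgeR) was larger in size than that of any member, and 115 of all genes tested had a lower one. CRK, the close relative of CRKL, went from 47.5 ± 0.133 to 24.1 ± 1.3 CPM with FT671 (SD over 3 libraries each), and the log2 fold change was −0.97 (SE 0.098, adjusted p = 2.98e-06 from edgeR). ABL2, the other ABL kinase, CBLB and INPPL1, which encodes SHIP2, were downregulated with log2 fold changes of −0.64, −0.54 and −0.50. ABR, the relative of BCR, had a log2 fold change of −0.63 that did not pass 0.05 (adjusted p = 0.0843 from edgeR), from 8 to 52 counts per library. The values for GRAP2, GAB1, GAB3, SHC2 and PTPN6 were 0.06, 0.07, 0.15, −0.47 and 0.40, none of them past 0.05. SHC2 passed it without DMSO replicate 3 or FT671 replicate 1, at −0.52 and −0.59.

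**Figure D3:**
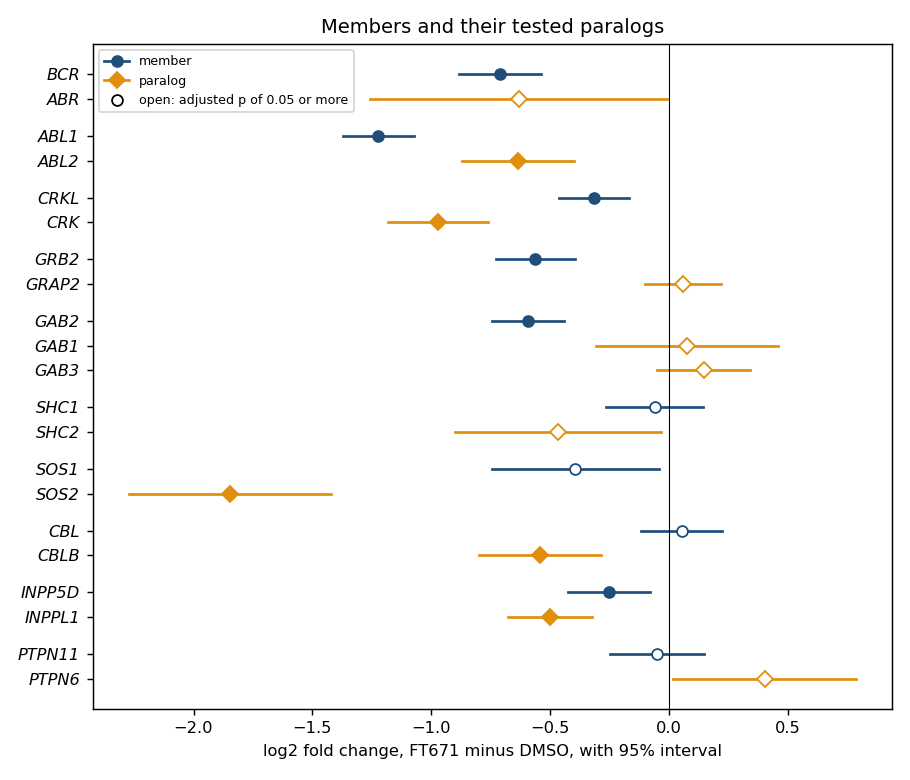
Log2 fold change, FT671 minus DMSO, of the 10 members (blue circles) and their 11 tested paralogs (orange diamonds), grouped by family, with 95% intervals from edgeR and open symbols where the adjusted p was 0.05 or more. SOS2, at −1.85, lies far to the left of SOS1, and CRK, at −0.97, to the left of CRKL, whereas ABL2 lies to the right of ABL1.

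Members and their paralogs were compared directly by the ratio of their counts within each library, for 8 families beside the ratio of ABL1 to BCR. There were 2.03, 1.95 and 2.03 counts on SOS1 for each count on SOS2 in DMSO, and 5.43, 4.89 and 6.10 after FT671, a difference of 1.44 in the log2 ratio. The ratio of CRKL to CRK was 16.2, 16.7 and 17 in DMSO and 26.1, 26.8 and 26 after FT671, a difference of 0.66. For CBL to CBLB and INPP5D to INPPL1 the differences were 0.63 and 0.23. In the other direction, the difference was −0.64 for GAB2 to GAB1, −0.58 for ABL1 to ABL2 and −0.44 for PTPN11 to PTPN6. In each of these 7 families the FT671 and DMSO ratios did not overlap, with p = 0.1 from the exact permutation test, the smallest possible, and 0.113 after adjustment over 9 ratios. Some gaps were narrow. The nearest DMSO and FT671 log2 ratios were −0.313 and −0.310 for INPP5D to INPPL1. They were 4.79 and 4.75 for GAB2 to GAB1, and 4.35 and 4.27 for PTPN11 to PTPN6. Of all single genes tested, 57.1% had groups that did not overlap, and how often other gene pairs separate was not tested. BCR to ABR did not separate the groups (difference −0.15, exact permutation p = 0.5). Single libraries weighed on some of these differences. PTPN11 to PTPN6 was at −0.22 without DMSO replicate 3 and INPP5D to INPPL1 at 0.15 without DMSO replicate 1. GAB2 to GAB1 lay between −0.86 and −0.42 with 1 library left out. BCR to ABR ranged from −0.30 to −0.052.

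**Figure D4:**
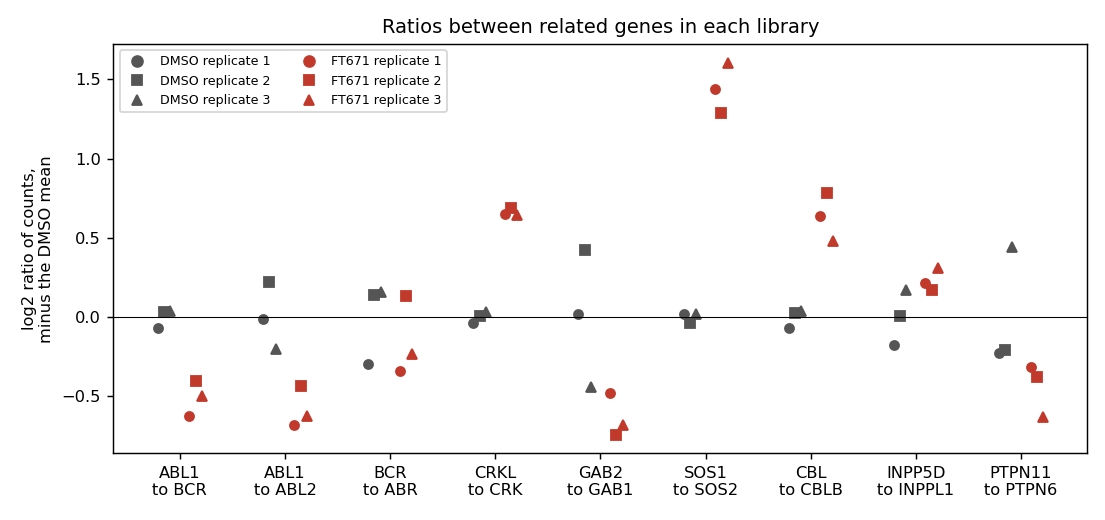
Log2 ratio of the counts of 2 related genes in each library, minus the mean of the 3 DMSO libraries, for 9 pairs, with grey symbols for DMSO, red symbols for FT671 and the shape giving the replicate number. The FT671 libraries lie 1.44 above DMSO on average for SOS1 to SOS2 and 0.51 below for ABL1 to BCR, and they mix with DMSO for BCR to ABR.

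Other proteins that bind or modify BCR-ABL1 (19 genes, of which 15 passed the filter) went both ways, with 6 downregulated and 5 upregulated. These were 40% and 33.3% of the tested genes of the list, against 26.5% and 23.6% of all genes tested. Upregulated genes included HSP90AA1 and HSP90AB1, which encode the HSP90 chaperones that keep the kinase folded. HSP90AA1 had 422, 391.6 and 528 CPM in DMSO and 1253, 1396 and 1437 CPM after FT671, a log2 fold change of 1.61 (with SE 0.1, adjusted p = 5.45e-08 from edgeR). HSP90AB1 rose from 2122 ± 56.4 to 3493 ± 15.2 CPM (SD over 3 libraries each), which gave a log2 fold change of 0.72 with an adjusted p of 1.02e-06 from edgeR. The adaptor NCK1 rose by 0.80 on the log2 scale, while its paralog NCK2 fell by 0.44. DOK1, a substrate that restrains RAS signaling, and PXN, the focal adhesion protein paxillin, were downregulated with log2 fold changes of −0.79 and −0.43.

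In the RAS-MAPK arm all 18 genes passed the filter, and 8 (44.4%) were downregulated and 1 (5.56%) was upregulated. Over all genes tested these shares were 26.5% and 23.6%. The largest falls were those of SPRED1, SPRED2 and RASA1, which all encode negative regulators of the RAS pathway. Their log2 fold changes were −0.95, −0.77 and −0.62, at adjusted p-values of 7.29e-04, 7.00e-06 and 0.00384 by edgeR. NRAS was the upregulated gene, with a log2 fold change of 0.32 (adjusted p = 0.0279 from edgeR) and overlapping groups. Its call was lost with library totals alone and without DMSO replicate 1 or 2 or FT671 replicate 2 or 3 (log2 fold changes of 0.27, 0.22, 0.26 and 0.35), which left 0 upregulated genes in this arm, and there were 2 without DMSO replicate 3.

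In the PI3K-AKT arm 22 of 23 genes passed the filter, and 15 (68.2%) were downregulated and 4 (18.2%) upregulated. Over all genes tested these shares were 26.5% and 23.6%. The number downregulated was 10 after the exon length correction, 12 by DESeq2's Wald test and 11 to 15 with 1 library left out. Over all 13895 genes tested, 3325 were downregulated after that correction and 3121 by that test, against 3687 by edgeR without a correction. The median log2 fold change of this arm was −0.33. PIK3R3, which encodes a regulatory subunit of PI3K, had 18.1, 18.8 and 20.1 CPM in DMSO and 6, 5.23 and 6.26 CPM after FT671. Its treated libraries were all well under the controls, and its log2 fold change was −1.67 (SE 0.15, adjusted p = 8.07e-07 from edgeR). PDPK1, the kinase that activates AKT, and RPTOR, the defining subunit of mTORC1, were downregulated with log2 fold changes of −1.31 and −1.16. FOXO1, MLST8 and MTOR were upregulated with log2 fold changes of 0.77, 0.42 and 0.32. The call for FOXO1 was lost without DMSO replicate 1 or 2 or FT671 replicate 2 (log2 fold changes of 0.71, 0.66 and 0.51), and 2 upregulated genes then remained in this arm.

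In the STAT5 arm 13 of 14 genes passed the filter, with 7 (53.8%) downregulated and 2 (15.4%) upregulated. Over all genes tested these shares were 26.5% and 23.6%. STAT5A, a transcription factor activated by BCR-ABL1, was upregulated, with 449, 448 and 420 CPM in DMSO and 699, 658 and 663 CPM after FT671. All treated libraries were higher, and the log2 fold change was 0.62 (SE 0.067, adjusted p = 5.40e-06 from edgeR). PIM2, a survival kinase, rose by 0.43 on the log2 scale. The largest falls were those of SOCS3, SOCS1 and PIM3, with log2 fold changes of −1.22, −0.85 and −0.80. SOCS1 and SOCS3 encode feedback inhibitors of JAK-STAT signaling.

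**Figure D5:**
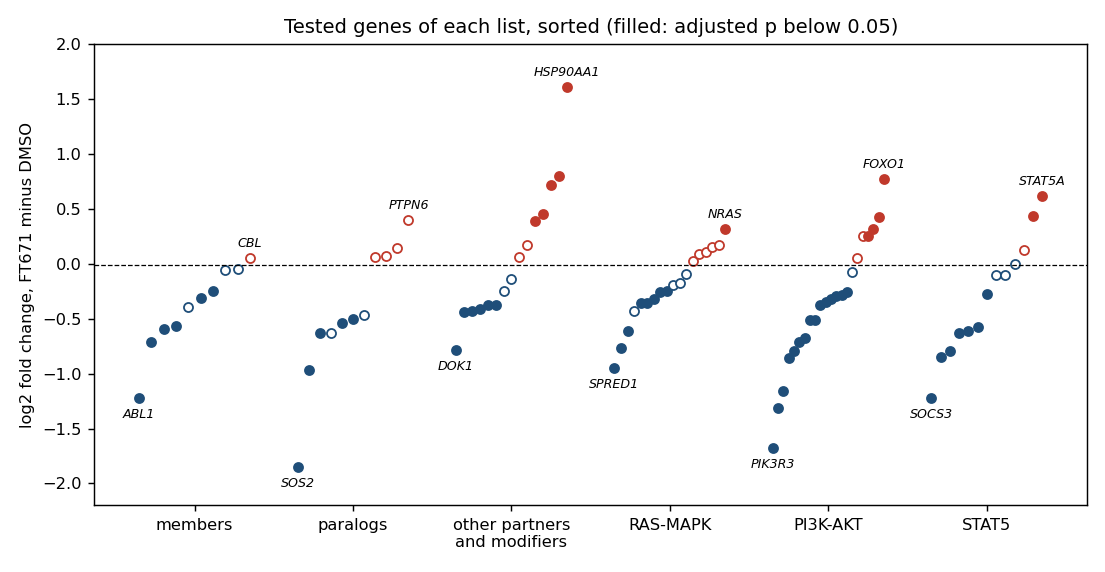
Log2 fold change, FT671 minus DMSO, of each tested gene in the list of members, their paralogs and 4 further lists, sorted within each list, with filled circles for an adjusted p below 0.05 and a dashed line for the median of all genes tested at −0.01. Most filled circles of the PI3K-AKT list lie below the line (15 of 19), whereas the list of other partners and modifiers is split, from DOK1 at −0.79 to HSP90AA1 at 1.61.

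The promoters of the members varied widely in CG content. RefSeq windows of 300 bases were matched for 8 members, with 11 windows in all, and CBL and PTPN11 were not matched. The number of CG dinucleotides ranged from 1 to 58, both in the windows of GAB2, with 12 in INPP5D, 35 in GRB2 and 39 in CRKL. The median was 19 over the 11 windows and 25 over all 14158 windows, which belong to 9863 of the genes tested. The E-box CACGTG, the motif of MYC and MAX, was in 0 of the 11 windows and in 9.61% of all. GATAA on either strand, the core of the GATA motif, was in 2 of the 11, 1 each of GAB2 and SOS1, and in 14.9% of all.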

How the data were processed

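Paired-end reads of total RNA without ribosomal RNA were mapped by the authors with STAR, in its two-pass mode, on hg38. They deposited raw read counts per gene for each library. Versions, annotation and strand setting are not given in the sources used here. Of 60609 Ensembl identifiers, 60295 were matched to GENCODE release 44 on hg38. Members and lists were chosen with earlier results of these data known. Genes were filtered with filterByExpr (13895 kept), scaled by TMM and tested, FT671 against DMSO over 6 libraries without covariates, by the quasi-likelihood test of edgeR 4.0.16 in R 4.3.3, with Benjamini-Hochberg adjustment over all genes tested. The standard error is the size of the log2 fold change divided by the square root of F. The floor is 3 counts per library and covers counting error only. Chi-square per degree of freedom between replicates was 2.07 to 8.73, above counting error in every pair. It was 7.55 and 8.73 for DMSO replicate 3 against DMSO replicates 1 and 2, and 2.07 to 3.2 in the other pairs. Ratios used a prior count of 0.5 and an exact permutation test.

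The named genes were all members, tested paralogs, the 3 lowest and 3 highest called genes of each other list, tested neighbors within 250 kb, the 3 nearest profiles, USP7 and genes overlapping a member. Alternatives were DESeq2's size factors, library totals, DESeq2 1.42.0, no filter, at least 10 counts in every library, the replicate number as a block, loess corrections (span 0.3) for exon length and GC content, and leaving out each library. The code was tested on simulated data.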

Additional observations from a re-analysis of the deposited data

How the results depend on the processing

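ABL1, BCR, GAB2, GRB2 and CRKL stayed lower and past 0.05 under every alternative. The number of members past 0.05 was between 5 and 7 with 1 library left out. Downregulated genes among all tested then numbered 2972 to 4100. At 1e-05 the number of members was 1 with DESeq2's size factors, with at least 10 counts in every library and after the exon length correction, 4 with DESeq2's Wald test, without a filter, after the GC correction and after either correction with the replicate block, and between 1 and 4 with 1 library left out. The shares of all genes past 1e-05 under these alternatives were not taken.

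INPP5D and the 4 members without a call changed call or sign under some alternatives. For SOS1 the log2 fold change passed 0.05 with library totals alone (−0.43), DESeq2's Wald test (−0.39), no filter (−0.43), the replicate block (−0.42), the exon length correction with the block (−0.30), the GC correction (−0.43) and the GC correction with the block (−0.45), and ranged from −0.53 to −0.16 with 1 library left out. INPP5D lost its call by DESeq2's Wald test (−0.23), after the exon length correction without and with the block (−0.12 in both) and after the GC correction (−0.17), and ranged from −0.30 to −0.21 with 1 library left out. CBL passed 0.05 at 0.21 after the exon length correction, without and with the block. SHC1 changed sign after the exon length correction with the block (0.0082), the GC correction (0.024) and the GC correction with the block (0.039), and ranged from −0.15 to 0.021 with 1 library left out. PTPN11 changed sign after the exon length correction, at 0.10 without and with the block, and ranged from −0.13 to 0.048. The length and GC corrections moved the median of all genes to 0.044 and 0.029. The causes were not tested.

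Upregulated paralogs numbered 2 after the exon length correction, and 1 each after that correction with the block and the GC correction without and with it. In the RAS-MAPK arm 0 genes were upregulated with library totals alone, 2 after the exon length correction and 3 after the GC correction, without and with the block in both cases, and 0 to 2 with 1 library left out. In the PI3K-AKT arm this number was 2 to 4 with 1 library left out. Downregulated genes in that arm numbered 10 after the exon length correction, 11 after that correction with the block and 12 by DESeq2's Wald test. Over all 13895 genes tested, downregulated genes numbered 3325, 3402 and 3121 in these fits, in this order. Upregulated genes over all 13895 numbered 3848 after the exon length correction, 4045 after the GC correction and 2968 with library totals alone. GAB1 was at −0.0040 and −0.086 without DMSO replicates 1 and 2, and ranged from −0.086 to 0.28 with 1 library left out. Of 732 values for 46 other named genes under the alternatives, 709 kept their direction and their side of 0.05, 14 lost a call, 7 gained one and 2 changed sign.

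With the longest transcript as length, the levels in DMSO and after FT671, in CPM per kb, were 46.6 and 28.5 for BCR, 74.2 and 31.9 for ABL1, 47.9 and 32.5 for GRB2, 125 and 82.4 for GAB2, 23.9 and 23.2 for SHC1, 5.45 and 4.03 for SOS1, 21.8 and 22.6 for CBL, 16.8 and 14.1 for INPP5D and 22.1 and 21.1 for PTPN11.

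The replicate numbers were not taken to pair the libraries. Same-numbered DMSO and FT671 libraries deviated from their groups with correlations of 0.115, −0.0605 and 0.14 across genes, which are not independent replicates. With the replicate block, SOS1 was the only member whose call at 0.05 changed, to −0.42 (adjusted p = 0.00802 from edgeR), and 3 members passed 1e-05. Precision was limited by 3 libraries per group and by totals that differed between libraries.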
